A study of Mus musculus with 16 samples.

Results

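Sterol and fatty acid synthesis is described here through 32 named genes of the pathway, of 18194 genes that have a probe set annotated to a single gene symbol on the array. The genes were named by their known roles, with earlier results of these data known. Of the 32, 6 act in the mevalonate and isoprenoid steps and 11 between squalene and cholesterol. A further 6 encode the SREBP factors, their regulators and a sterol carrier. The remaining genes are 4 that make fatty acids from acetate units and 5 that desaturate or elongate fatty acids. RNA came from 2 immature thymocyte subsets of PKBα-/- mice and of their wild-type (PKBα+/+) littermates. PKBα, encoded by Akt1, is a serine/threonine kinase downstream of PI3K, and PKBα-/- mice lack it in every cell type, the thymic stroma included.

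The 16 arrays form 4 groups of 4, namely ISP8 PKBα-/-, ISP8 PKBα+/+, DN3 PKBα-/- and DN3 PKBα+/+. DN3 thymocytes (negative for CD4 and CD8, CD25+ and CD44-) stand before the β-selection checkpoint, at which a productive TCRβ chain is required. ISP8 thymocytes (CD8+ and negative for CD4 and CD3) stand after it, before cells carry both CD4 and CD8. Each of 8 mice gave both subsets, and all were of a C57Bl/6 backcross. Pair 1 were females of 3 weeks, pair 2 males of 3 weeks, pair 3 males of 2 weeks and pair 4 females of 5 weeks, so that sex and age were shared within a pair and differed between pairs. Values listed for a group run from pair 1 to pair 4 throughout.

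Akt1 lay between 4.87 and 6.81 in the ISP8 PKBα-/- arrays, against 1628 and 2211 in the ISP8 wild-type arrays, and between 2.01 and 27.3 in the DN3 PKBα-/- arrays, against 1198 and 2007 in the DN3 wild-type arrays, in units of linear GC-RMA intensity. Cd8a lay apart in the 2 subsets, at 4251 to 6012 in ISP8 and 98.4 to 292 in DN3 thymocytes, and Il2ra, which encodes CD25, lay the other way, at 84.8 to 460.1 in ISP8 and 6899 to 10971 in DN3 thymocytes. Both encode proteins that defined the sort. Of 6 tested markers listed for ISP8 thymocytes, 4 were higher in ISP8 and 1 lower. Cd24a lay at 11078 to 14728 in ISP8 and 15005 to 17760 in DN3 thymocytes. Ccr9 overlapped, at 2348 to 5345 and 1186 to 8344. Of 8 listed for DN3 thymocytes, 7 were lower in ISP8 and 0 higher. Some markers listed for cell types other than thymocytes were detectable. The summed level of 4 neutrophil markers was 38.1 to 145 in ISP8 PKBα-/- and 128 to 2890 in ISP8 wild-type arrays. It was 32.5 to 389 in DN3 PKBα-/- and 86.8 to 1114 in DN3 wild-type arrays. Of 35 tested markers of 8 other cell types, 3 were higher in ISP8 than in DN3 samples (Ms4a1, H2-Aa and Psmb11). The 6 lower ones were Il7r, Cd79b, Csf1r, Lyz2, Epcam and Nkg7. Il7r, listed for mature T cells, lay at 638 to 1257 in ISP8 and 6067 to 7507 in DN3 samples. Psmb11 lay at 1.71 to 38.0 in ISP8 and 1.28 to 3.66 in DN3 samples, around or below the detection filter of 20. Whether these markers came from thymocytes or from other cells was not tested. The summed level of 5 adipocyte markers stayed between 18.3 and 147 on all 16 arrays. The subsets were sorted with different antibody panels, and the ISP8 arrays were numbered before the DN3 arrays. Subset, panel and array order thus cannot be told apart. In sorted bulk samples, fewer cells of a type and less RNA per cell cannot be told apart either.

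Cells build cholesterol from acetyl-CoA through mevalonate, isoprenoid diphosphates and squalene, and build fatty acids by extending acetyl-CoA with malonyl-CoA. Both branches are under the SREBP transcription factors, which SCAP escorts from the endoplasmic reticulum to the Golgi for cleavage when sterols are low, and which INSIG proteins hold back when sterols are high. SREBPs bind sterol regulatory elements in promoters of the pathway, commonly beside CCAAT and GC boxes. Dividing lymphocytes draw on both branches for membranes, and signals through PI3K and PKB are known to raise SREBP activity in several cell types.

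The promoters of the 3 genes of the pathway that were at least 2-fold lower in ISP8 than in DN3 thymocytes (Dhcr7, Elovl6 and Fads2) are shown because these genes had the largest changes of the 32 by the probe set used for each gene. That of Hmgcs1 was added after the motif search, as the only listed window of the pathway with the letters TCACNCCAC, used here for the sterol regulatory element. Nothing is drawn from setting it beside the other 3. Each line gives the 250 bases before the gene's 5′-most listed start, on the gene's own strand, from RefSeq on GRCm38.p6. Dhcr7 is at chr7:143822917-143823166 (+), Elovl6 at chr3:129532136-129532385 (+), Fads2 at chr19:10101504-10101753 (-) and Hmgcs1 at chr13:119690101-119690350 (+). Capitals mark matches, on either strand, to a sterol regulatory element (TCACNCCAC), a CCAAT box (CCAAT), a GC box (GGGCGG) or an E-box (CACGTG).
Dhcr7: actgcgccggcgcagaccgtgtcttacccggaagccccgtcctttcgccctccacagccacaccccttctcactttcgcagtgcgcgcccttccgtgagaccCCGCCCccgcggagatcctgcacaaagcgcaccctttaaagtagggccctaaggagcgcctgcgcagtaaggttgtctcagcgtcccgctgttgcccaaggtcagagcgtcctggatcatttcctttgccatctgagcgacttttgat
Elovl6: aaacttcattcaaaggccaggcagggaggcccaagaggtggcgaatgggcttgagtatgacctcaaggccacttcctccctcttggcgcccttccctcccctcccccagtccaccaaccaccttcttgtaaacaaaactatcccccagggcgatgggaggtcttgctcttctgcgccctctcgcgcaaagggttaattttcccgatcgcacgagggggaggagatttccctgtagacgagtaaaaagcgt
Fads2: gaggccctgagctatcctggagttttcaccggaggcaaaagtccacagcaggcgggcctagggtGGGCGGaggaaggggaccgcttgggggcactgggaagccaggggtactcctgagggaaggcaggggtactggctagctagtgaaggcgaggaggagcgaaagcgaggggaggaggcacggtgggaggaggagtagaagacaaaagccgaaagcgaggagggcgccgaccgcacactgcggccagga
Hmgcs1: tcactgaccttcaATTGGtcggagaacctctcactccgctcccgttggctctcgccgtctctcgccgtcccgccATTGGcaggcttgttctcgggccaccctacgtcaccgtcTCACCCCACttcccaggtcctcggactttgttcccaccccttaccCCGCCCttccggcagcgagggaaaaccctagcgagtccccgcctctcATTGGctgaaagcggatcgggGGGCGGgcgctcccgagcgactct
The Hmgcs1 window held all of these motifs but the E-box, with the sterol regulatory element beginning 137 bases before the start, and Dhcr7 and Fads2 each held 1 GC box, at 148 and 186 bases, and Elovl6 held none of the 4. A promoter was listed for 25 of the 32 genes. TCACNCCAC occurred in 1 of the 25, that of Hmgcs1, and in 1.03% of all 27025 promoters of this length. CCAAT occurred in 19 of the 25 and in 34.5% of all promoters, GGGCGG in 18 and in 33%, and CACGTG in 3 (Hsd17b7, Insig1 and Sc5d) and in 6.04%. The matches marked in the printed windows do not overlap each other, and a match describes the sequence only. Only these exact letters in these windows were searched, so a window without a match is not shown to lack a working element.

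The first comparison asks how the pathway differs across the β-selection checkpoint, ISP8 against DN3 thymocytes of the same mice. The reductase that completes cholesterol synthesis, Dhcr7, and the enzymes that lengthen and desaturate fatty acids, Elovl6, Fads2 and Scd2, were lower in ISP8 thymocytes, by 1.49-fold to 2.61-fold. Acss2, which supplies acetyl-CoA, and the sterol demethylation genes Hsd17b7 and Msmo1 were lower as well, by 1.71-fold, 1.48-fold and 1.36-fold. The carboxylase and synthase of fatty acid synthesis, Acaca and Fasn, 2 mevalonate pathway enzymes, Pmvk and Idi1, and the SREBP retention factor Insig1 were higher, by 1.21-fold to 1.44-fold. Ebp and Acly were also higher, by 1.27-fold and 1.12-fold. Across both genotypes, 7 genes were higher and 7 lower of the 32, all of which were tested (limma, mouse as a block, adjusted p under 0.05 with Benjamini-Hochberg over all 38748 probe sets tested). The 8 mice are 4 littermate pairs, and this fit took their ISP8 to DN3 differences as independent. Where littermates share a difference, its standard errors and adjusted p are too small. The call rate of 43.8% stood near the background, as 40.3% of all genes tested passed the same threshold, 17.4% higher and 22.9% lower. The median log2 change of the 32 was -0.05, against -0.02 for all genes tested. Leaving out 1 pair at a time gave 13 to 16 called genes.

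**Figure D1:**
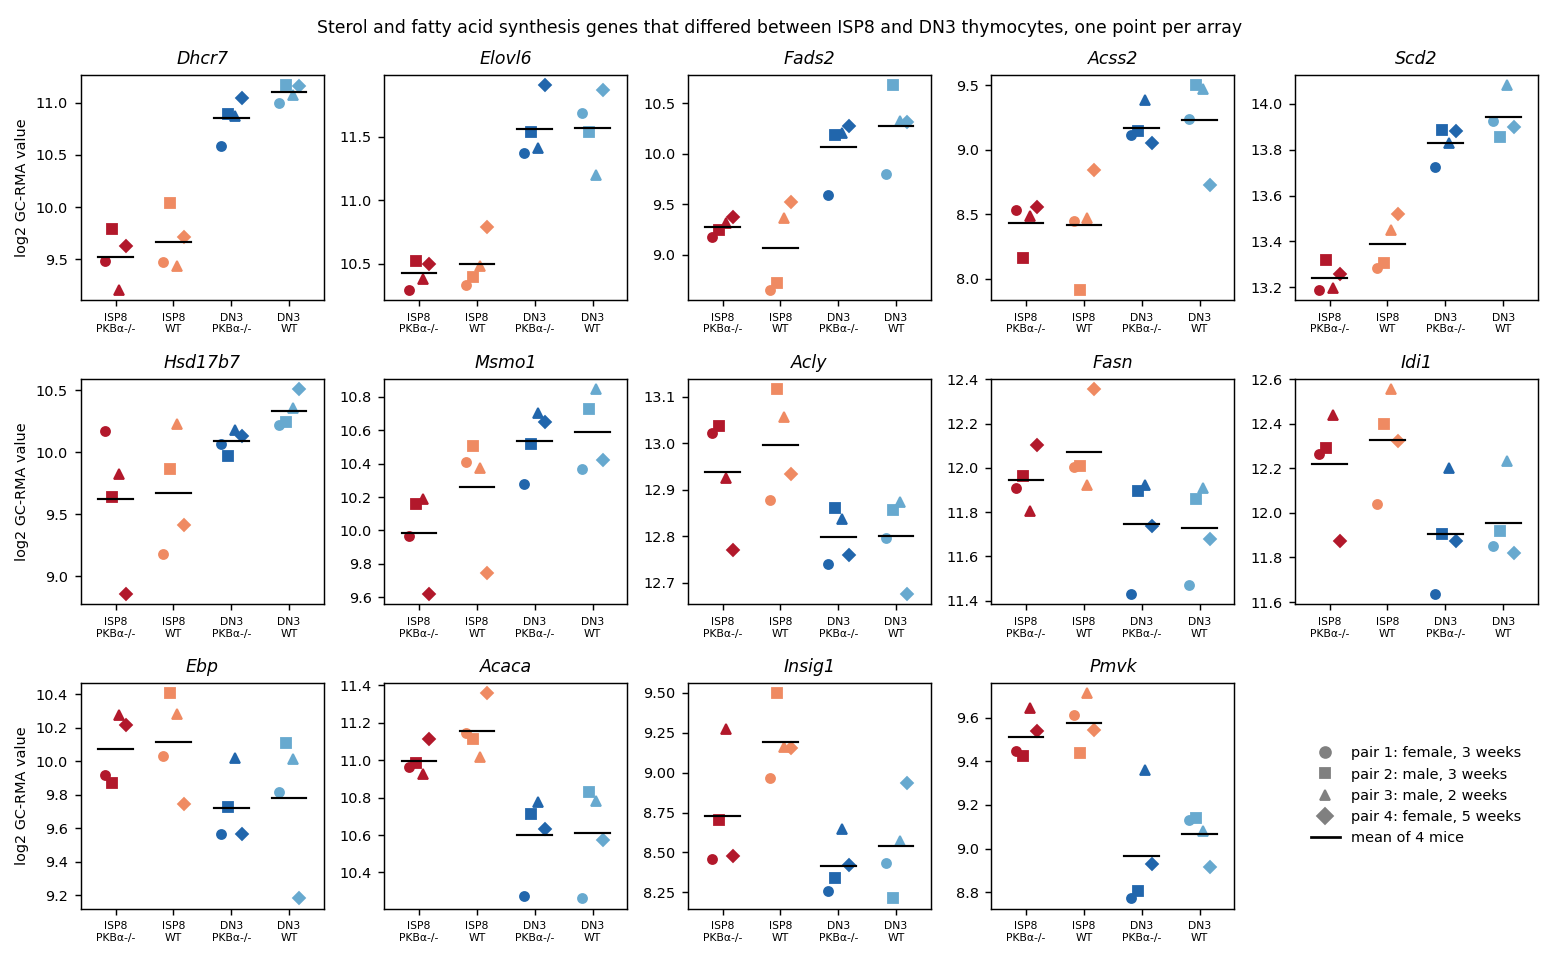
Log2 GC-RMA values (y axis) of the 14 genes that differed between ISP8 and DN3 thymocytes over both genotypes, from the most lowered to the most raised, in 4 groups of 4 arrays (x axis); each symbol is 1 array, its shape gives the pair, and the bar is the mean. The 8 ISP8 arrays lie apart from the 8 DN3 arrays for Dhcr7, Elovl6, Fads2, Scd2, Acaca and Pmvk, and overlap for the other 8 genes.

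In the squalene to cholesterol steps, Dhcr7, which reduces 7-dehydrocholesterol to cholesterol, had values of 716, 883, 590.1 and 788 in PKBα-/- ISP8 thymocytes and 712, 1054, 694 and 841 in wild-type ISP8 thymocytes. The DN3 values of Dhcr7 were 1537, 1899, 1876 and 2122 in PKBα-/- and 2051, 2309.9, 2161 and 2296 in wild-type mice. Every ISP8 array was thus below every DN3 array, and Dhcr7 fell by 1.38 on the log2 scale (SE 0.087, adjusted p = 1.91e-09, lower in 8 of 8 mice). Of the 32 genes, 6 had ISP8 and DN3 arrays that did not overlap at all, 4 lower and 2 higher, which is 18.8% of the genes beside 18.3% of all genes tested (11.1% lower and 7.15% higher).

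Hsd17b7, the reductase that acts while the methyl groups of sterol intermediates are removed, was lower in ISP8 in 7 of 8 mice. Its values were 1154, 798, 906 and 463 in PKBα-/- ISP8 and 579.8, 935, 1199.8 and 679.7 in wild-type ISP8 thymocytes, against 1073, 1001, 1162 and 1119.8 in PKBα-/- DN3 and 1194, 1211, 1312 and 1458 in wild-type DN3 thymocytes. The ISP8 arrays spread more widely than the DN3 arrays and overlapped them, with a log2 change of -0.56 (SE 0.137, adjusted p = 0.00355). Its 3 other probe sets did not pass the threshold, at -0.37, -0.28 and 1.25, and the mean of its 4 probe sets gave 0.01, so that the call rests on 1 probe set. Msmo1, the oxidase of the same demethylation, had a lowest, median and highest value of 787, 1153 and 1455 in ISP8 and of 1244, 1536 and 1839.9 in DN3 thymocytes. It fell by 0.44 (SE 0.0968, adjusted p = 0.00154), and its other probe set fell by 1.03. Ebp, the sterol isomerase that acts after demethylation, was the only gene of these 11 called higher, by 0.34 (SE 0.0844, adjusted p = 0.00385), at 856, 1119.8 and 1358 in ISP8 and 580.4, 874 and 1106 in DN3 thymocytes. It was higher in 8 of 8 mice, and did not pass the threshold without the mouse as a block.

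The other 7 enzymes of these steps did not pass the threshold. Fdft1, Sqle, Lss and Cyp51, which make and close squalene and remove the first methyl group of lanosterol, had log2 changes of 0.00, 0.06, 0.02 and 0.09. Sqle, often named as the second control point of the pathway, lay at 2663, 3341 and 4227 in ISP8 and at 2418, 3041 and 4248 in DN3 thymocytes, and its 95% confidence interval ran between -0.09 and 0.21. Nsdhl, Sc5d and Tm7sf2 stood at -0.09, -0.03 and -0.22. These values are those of the brightest probe set, and a dimmer one was called lower for Lss (-0.85) and for Cyp51 (-0.74), so that the steps around lanosterol have no settled change.

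Among the mevalonate and isoprenoid enzymes, Hmgcs1, which makes HMG-CoA, lay at 9942, 15467 and 16710.3 in ISP8 and at 12933, 15412 and 18084 in DN3 thymocytes, with a log2 change of -0.09 and a 95% confidence interval between -0.24 and 0.05. All 5 of its probe sets had estimates below 0, and 1 of them was called lower (-0.17, adjusted p = 0.043). Pmvk, the second of the mevalonate kinases, had 697, 687, 800.2 and 744 in PKBα-/- ISP8 and 782, 693, 839 and 746 in wild-type ISP8 thymocytes. The DN3 values of Pmvk were 437, 447, 657 and 488 in PKBα-/- and 561, 565, 541 and 483 in wild-type mice. All ISP8 arrays were above all DN3 arrays, and Pmvk rose by 0.53 (SE 0.0929, adjusted p = 0.000221, higher in 8 of 8 mice). Idi1, which isomerises isopentenyl diphosphate, rose by 0.34 (SE 0.0688, adjusted p = 0.000746) in 7 of 8 mice, at 3756, 5065 and 6020.2 in ISP8 and 3182, 3797 and 4818 in DN3 thymocytes, and both of its probe sets passed. Mvk, Mvd and Fdps did not pass, at -0.08, -0.19 and -0.29.

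In the SREBP group, the gene called higher was Insig1, itself a target of SREBPs. It had 352, 417, 619 and 356 in PKBα-/- ISP8 and 501, 723, 571 and 571 in wild-type ISP8 thymocytes, against 306, 325, 400.1 and 343 in PKBα-/- DN3 and 345, 297, 381 and 490.1 in wild-type DN3 thymocytes. Insig1 was higher in 8 of 8 mice, by 0.48 (SE 0.126, adjusted p = 0.00576), with overlapping arrays. Srebf1, which encodes the SREBP that favours fatty acid genes, had a log2 change of 0.18 (adjusted p = 0.0872), and Srebf2, which encodes the one that favours sterol genes, had -0.20 (adjusted p = 0.314). Scap, Insig2 and the sterol carrier Stard4 stood at 0.18, 0.08 and -0.18, none past the threshold. Within PKBα-/- mice a dimmer probe set of Insig2 was called lower (-0.48, limma adjusted p = 0.046), where the chosen one stood at -0.01. The other 2 probe sets of Stard4 were called in opposite directions, at 0.97 and -0.24.

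Of the 4 genes of fatty acid synthesis and its precursors, 3 were called higher and 1 lower, beside the 40.3% of all genes, and the calls of Acly and Fasn did not hold under every setting. Acly and Acss2 both supply cytosolic acetyl-CoA, from citrate and from acetate. Acss2 had 369, 287, 359 and 376 in PKBα-/- ISP8 and 349, 241, 354 and 459.9 in wild-type ISP8 thymocytes, against 553, 566, 669 and 529.6 in PKBα-/- DN3 and 603, 726, 711 and 423 in wild-type DN3 thymocytes. It was lower in 7 of 8 mice, the exception being the wild-type mouse of pair 4, with a log2 change of -0.78 (SE 0.149, adjusted p = 0.000505), and all 3 of its probe sets were called lower. Acly rose by 0.17 (SE 0.0515, adjusted p = 0.0169), at 6991, 8069 and 8880.3 in ISP8 and 6544, 7215 and 7511 in DN3 thymocytes, and quantile normalization of the arrays left a change of -0.00017. The call of Acly was also lost without pair 1 (0.16) and without pair 2 (0.15).

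Acaca, the acetyl-CoA carboxylase that makes malonyl-CoA, had 1993, 2029.8, 1946 and 2214 in PKBα-/- ISP8 and 2268, 2211, 2071 and 2625 in wild-type ISP8 thymocytes. The DN3 values of Acaca were 1239, 1677, 1756 and 1586 in PKBα-/- and 1228, 1819, 1758 and 1525 in wild-type mice. The ISP8 arrays all lay above the DN3 arrays, and Acaca rose by 0.47 (SE 0.088, adjusted p = 0.000378). Its other probe set was at -0.22 and not called, and the mean of the pair, at 0.13, did not pass. Fasn, the synthase that builds palmitate, rose by 0.27 (SE 0.0825, adjusted p = 0.0158) in 7 of 8 mice, at 3583, 4049.6 and 5246 in ISP8 and 2758, 3562 and 3883 in DN3 thymocytes. The call of Fasn was lost without pair 1 (0.19), without pair 4 (0.19) and after quantile normalization (0.19).

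Of the 5 desaturation and elongation genes, 3 were called lower and none higher, beside 22.9% lower and 17.4% higher of all genes tested. Elovl6, which extends palmitate to stearate, had 1256, 1473, 1334 and 1450.1 in PKBα-/- ISP8 and 1288, 1350.4, 1434 and 1773 in wild-type ISP8 thymocytes. The DN3 values of Elovl6 were 2648, 2971, 2732 and 3848 in PKBα-/- and 3294, 2975, 2349 and 3747 in wild-type mice. No arrays overlapped, and Elovl6 fell by 1.10 (SE 0.0779, adjusted p = 7.84e-09), a 2.15-fold difference that its 2 other probe sets gave as -1.08 and -1.20. Fads2, the desaturase that starts the synthesis of long polyunsaturated fatty acids, had 581, 607, 638 and 664 in PKBα-/- ISP8 and 403, 423, 659 and 735 in wild-type ISP8 thymocytes, against 775, 1163, 1185 and 1239 in PKBα-/- DN3 and 889, 1643, 1279.9 and 1277 in wild-type DN3 thymocytes. It was lower by 2-fold (SE of the log2 change 0.117, adjusted p = 2.94e-06) with no overlap.

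Scd2, a stearoyl-CoA desaturase that places the first double bond, had 9331, 10216, 9375 and 9788 in PKBα-/- ISP8 and 9984, 10109, 11196 and 11751 in wild-type ISP8 thymocytes, against 13548, 15123, 14579 and 15114 in PKBα-/- DN3 and 15555, 14809.5, 17364 and 15298 in wild-type DN3 thymocytes. The 8 mice agreed closely, with falls between 0.38 and 0.64 and a mean change of -0.57 (SE 0.0475, adjusted p = 5.52e-08). Its sister gene Scd1 lay at 10.6 to 55.6 over all 16 arrays, near the value of 20 used as the detection filter, and gave no usable comparison, with a 95% confidence interval between -0.87 and 0.88. Fads1, the desaturase that follows Fads2, did not pass, at -0.11 with an interval between -0.31 and 0.08.

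**Figure D2:**
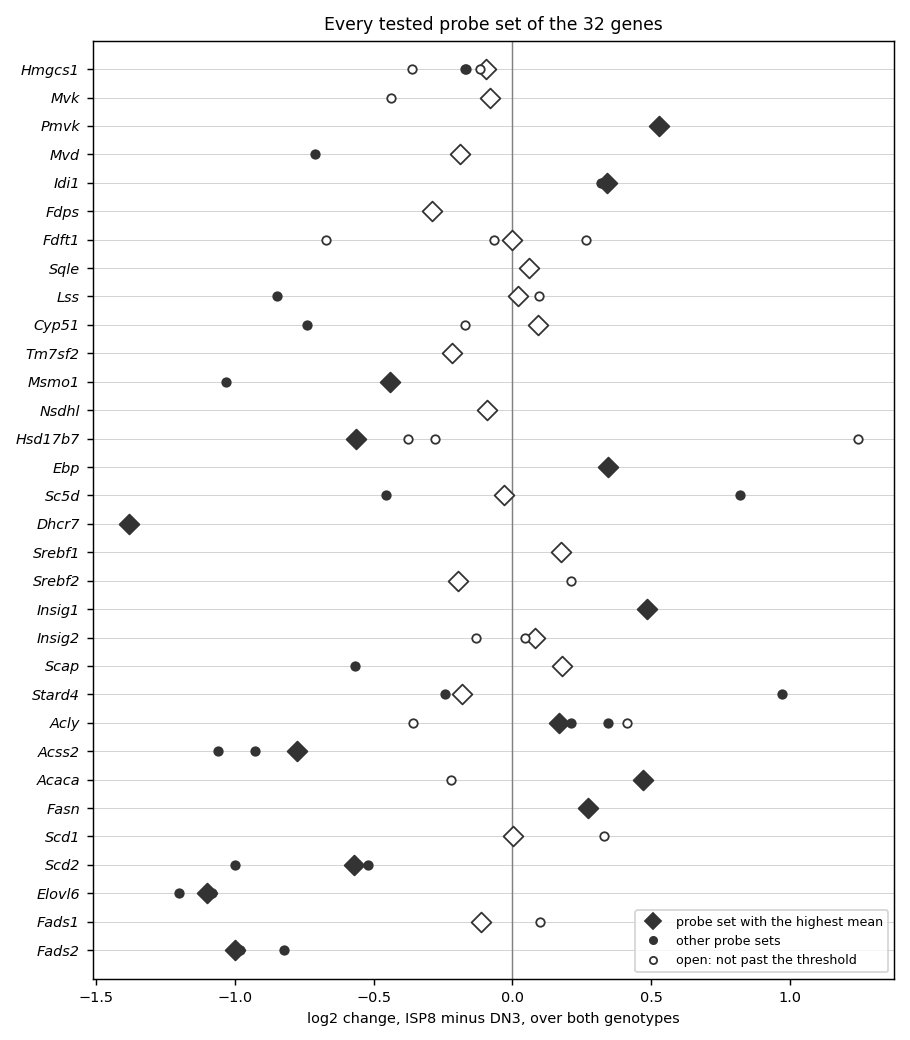
Log2 change in ISP8 against DN3 thymocytes over both genotypes (x axis) of every tested probe set of the 32 genes (y axis); diamonds are the probe set used for the gene, circles its other probe sets, and filled symbols passed the threshold. All 3 probe sets of Elovl6, of Acss2 and of Scd2 lie below 0, while those of Sc5d and Stard4 include calls in both directions.

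A total of 75 probe sets represented the 32 genes, and 23 genes had more than 1. Lss, Cyp51, Mvd, Scap and Hmgcs1, whose chosen probe set was not called, each had a dimmer probe set called lower, at -0.85, -0.74, -0.71, -0.57 and -0.17. Sc5d had 1 probe set called higher (0.82) and another called lower (-0.46) beside the chosen one at -0.03. For these 6 genes and for Stard4, Hsd17b7 and Acaca the probe sets disagreed in call, size or direction. Those of Hmgcs1 differed in call and not in direction. The values of the brightest probe set are given with that limit. Of 2 RNA integrity controls, the log2 distance between the 3′ and 5′ actin probe sets changed in ISP8 against DN3 arrays by a mean of -0.23 in PKBα-/- mice (higher in 1 of 4) and -0.65 in wild-type mice (higher in 0 of 4). The same distance for Gapdh changed by 0.11 in PKBα-/- mice and by -0.06 in wild-type mice, higher in 2 of 4 in each. The part of RNA integrity in these differences was not tested.

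The same comparison was then fitted within each genotype. In PKBα-/- mice 9 of the 32 genes were called, 3 higher and 6 lower, beside a background of 33.1% of the genes tested (14.1% higher, 19% lower), and in wild-type mice 11 were called, 5 higher and 6 lower, beside 33.7% (14% higher, 19.7% lower). Pmvk, Idi1 and Acaca were called higher in both genotypes, and Dhcr7, Scd2, Elovl6, Fads2 and Acss2 were called lower in both. Msmo1 was called in PKBα-/- mice (-0.56, adjusted p = 0.00551) but not in wild-type mice (-0.33, adjusted p = 0.0917). Insig1, Fasn and Hsd17b7 were called in wild-type mice (0.66, 0.34 and -0.66) but not in PKBα-/- mice (0.31, 0.20 and -0.46). None of these gaps between the genotypes passed a test of its own. The wild-type count depended on pair 1, without which 6 genes were called. Of the wild-type calls, those of Dhcr7, Elovl6, Scd2, Fads2 and Idi1 held whichever pair was left out, while Pmvk was lost without pair 1, 3 or 4, Acss2 without pair 1, 2 or 3, Hsd17b7 and Fasn without pair 1 or 4, Insig1 without pair 2 or 3 and Acaca without pair 1. Of the PKBα-/- calls, Acaca was lost without pair 1 or 4 and Idi1 without pair 1, 2 or 3, and the other 7 held.

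**Figure D3:**
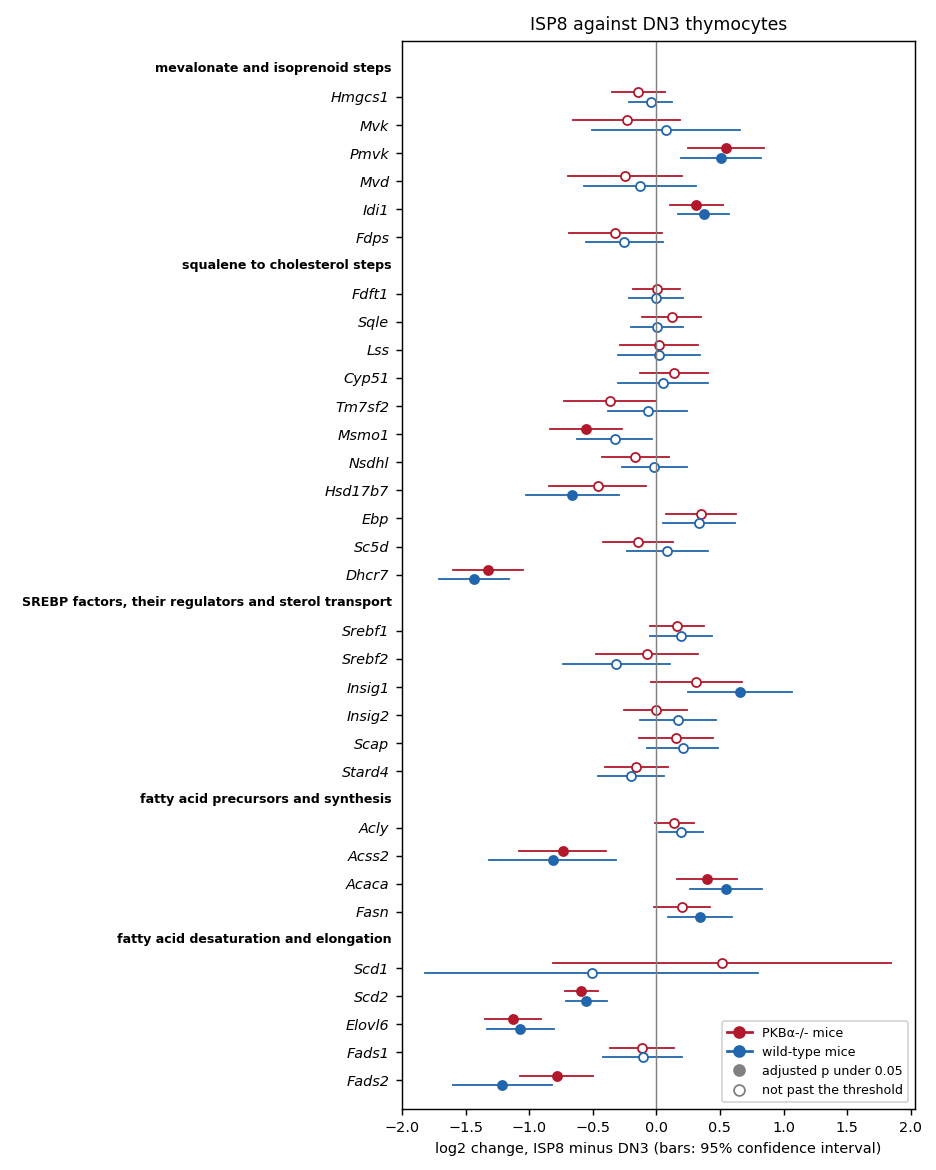
Log2 change in ISP8 against DN3 thymocytes (x axis, bars give the 95% confidence interval) of the 32 genes, grouped by step, in PKBα-/- mice (red, above) and wild-type mice (blue, below); filled symbols passed the threshold. The 2 genotypes lie close together for most genes, Dhcr7 at -1.33 and -1.44 and Elovl6 at -1.13 and -1.07.

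The size of the ISP8 to DN3 difference was compared between PKBα-/- and wild-type mice directly. None of the 32 genes passed, none had an unadjusted p under 0.05, and 0% of all 38748 probe sets passed (limma, mouse as a block), although 1815 of these had an unadjusted p under 0.05. This fit did not pair littermates, so its intervals and p-values leave out what littermates share. The methods' paired test, run over the pairs, also called none of the 32. The smallest p of the 32 was that of Fads2, whose log2 fall was -0.79 in PKBα-/- and -1.21 in wild-type mice, a difference of 0.43 (SE 0.234, adjusted p = 0.97). The interval of that difference ran between -0.07 and 0.92. For Dhcr7 it ran between -0.26 and 0.48 around 0.11, and for Elovl6 between -0.39 and 0.27 around -0.06, so that differences of these sizes between the genotypes could not be told from none.

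The second comparison asks what the absence of PKBα does to the pathway within a subset, PKBα-/- against wild-type littermates. No gene of the 32 was called in ISP8 or in DN3 thymocytes (limma, pair as a block), beside a background of 0.0206% of genes tested in ISP8 and 0.0555% in DN3. An unadjusted p under 0.05 was found for 6 of the 32 in ISP8, beside 945 of all 14555 genes tested, and for 4 in DN3 thymocytes, beside 723 of 14424, and all of these members were lower in PKBα-/- mice. The estimates were below 0 for 26 of the 32 genes in ISP8, against 7134 of 14555 genes tested, and for 25 of the 32 in DN3, against 7422 of 14424. Their median was -0.12 in ISP8 and -0.08 in DN3 thymocytes, where the medians of all genes tested were 0.006 and -0.007.

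**Figure D4:**
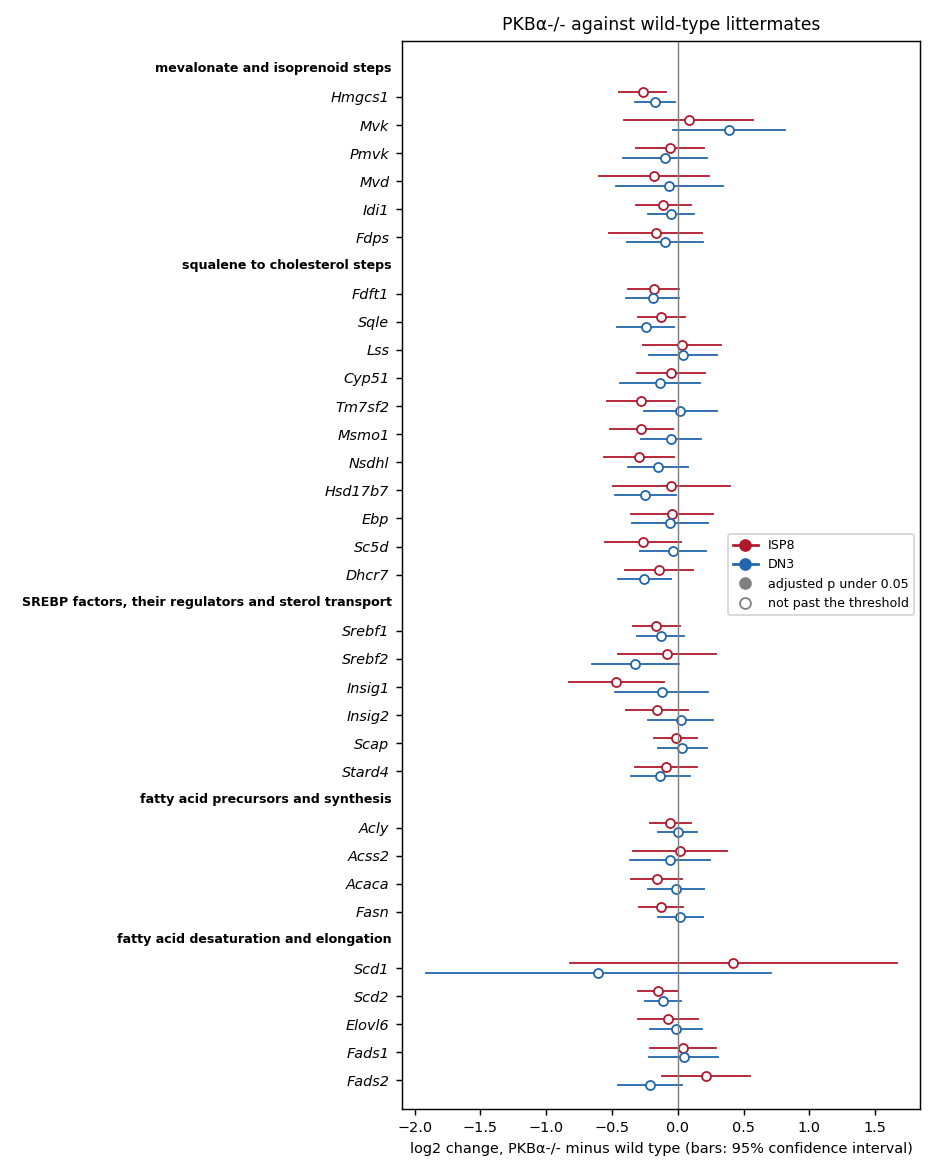
Log2 change in PKBα-/- against wild-type littermates (x axis, bars give the 95% confidence interval) of the 32 genes, grouped by step, in ISP8 (red, above) and DN3 thymocytes (blue, below). Most symbols lie left of 0, 26 of 32 in ISP8 and 25 of 32 in DN3, and all are open, as no gene passed the threshold.

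Hmgcs1 had the smallest p in ISP8 thymocytes, at 12373, 15628, 15724 and 9942 in PKBα-/- and 15305, 16361, 16710.3 and 15187 in wild-type mice. It was lower in PKBα-/- in 4 of 4 pairs, most in pairs 1 and 4, with a log2 change of -0.27 (SE 0.0834, adjusted p = 0.742). In DN3 thymocytes Hmgcs1 had 12933, 14591, 15467 and 15356 in PKBα-/- and 18084, 15286, 15701 and 16671 in wild-type mice, again lower in 4 of 4 pairs (-0.17, SE 0.0726, adjusted p = 0.972). Insig1 in ISP8 thymocytes was lower in PKBα-/- mice in 3 of 4 pairs (-0.47, SE 0.167, adjusted p = 0.796), the exception being pair 3. Msmo1 and Tm7sf2 in ISP8 were lower in 4 of 4 pairs, at -0.28 and -0.28, and Nsdhl in 3 of 4, at -0.30. Dhcr7 was lower in PKBα-/- DN3 thymocytes in 4 of 4 pairs (-0.25, SE 0.096, adjusted p = 0.972) and Hsd17b7 likewise (-0.25), while Dhcr7 in ISP8 stood at -0.14.

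By role, the 11 squalene to cholesterol genes had a median of -0.14 in both subsets, and the 6 SREBP factors and regulators had -0.12 in ISP8 and -0.13 in DN3. The 6 mevalonate and isoprenoid genes had -0.14 and -0.08. The 5 desaturation and elongation genes had 0.04 in ISP8, with 3 estimates above 0 and 2 below, and -0.11 in DN3. Srebf1 was lower in PKBα-/- mice in 4 of 4 pairs in either subset, at -0.16 (adjusted p = 0.825) in ISP8 and -0.13 (adjusted p = 0.972) in DN3. The 4 fatty acid synthesis genes had medians of -0.09 in ISP8 and -0.01 in DN3, and Fasn, at -0.13 in ISP8 and 0.02 in DN3, had intervals between -0.30 and 0.04 and between -0.15 and 0.19. A 2-fold change of Hmgcs1, Fasn, Dhcr7 or Srebf1 with genotype lay outside the 95% confidence interval in both subsets.

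The estimates differed from pair to pair. In ISP8 thymocytes the median of the 32 genes was -0.11, -0.09, -0.12 and -0.14 in pairs 1 to 4, with 21, 22, 27 and 25 genes lower in the PKBα-/- mouse. In DN3 thymocytes it was -0.20, -0.04, -0.04 and -0.03, with 29, 19, 21 and 17 genes lower, so that pair 1 stood apart. The medians of all probe sets lay between -0.03 and 0.04 in these 8 pairings. The genes share arrays and regulators and are not independent of each other, and no test was made over them. The neutrophil marker sum was lower in the PKBα-/- mouse in 3 of 4 ISP8 pairs (all but pair 3). In DN3 thymocytes it was lower in 3 of 4 pairs (all but pair 4). None of the 4 neutrophil markers was called between genotypes in either subset. The actin 3′ to 5′ distance was higher in PKBα-/- ISP8 in 4 of 4 pairs (mean 0.24) but in 1 of 4 DN3 pairs (mean -0.17), while that of Gapdh was higher in 2 of 4 pairs in either subset (means 0.10 in ISP8 and -0.07 in DN3). The part of these markers and controls in the estimates was not tested.

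Other genes around the pathway were counted from lists, over both genotypes, in ISP8 against DN3 thymocytes, where 40.3% of all genes tested were called, 17.4% higher and 22.9% lower. Of 14 tested genes of sterol uptake, transport, storage and the LXR response, 3 were higher and 8 lower, with a median of -0.31. The genes named next all fell, and the 3 higher ones are not named. Activity of LXR was not tested. The cholesterol exporters Abca1 and Abcg1, both LXR targets, fell by 2.03 (SE 0.132, adjusted p = 2.7e-09) and 1.49 (SE 0.107, adjusted p = 9.5e-09), at means of 141 and 1107 in ISP8 and 558 and 3016 in DN3 thymocytes. Mylip, an LXR target that degrades the LDL receptor, fell by 1.13, and Npc1, which releases cholesterol from lysosomes, by 1.27. Of 12 other genes of mevalonate and sterol metabolism, 3 were higher and 3 lower (median 0.01), led by Lbr, a sterol reductase of the nuclear envelope, at 0.43, and by Rabggtb, a prenyltransferase subunit, at 0.61.

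The counts of the remaining lists stand beside that same share, 40.3% of all genes tested, 17.4% higher and 22.9% lower. Of 11 genes that process or degrade SREBPs, 2 were higher and 4 lower (median -0.07). Lpin1, a phosphatidate phosphatase that also restrains nuclear SREBP, fell by 1.03, and Mbtps1, the site-1 protease of SREBPs, by 0.43. Of 21 other genes of fatty acid synthesis, elongation and activation, 4 were higher and 6 lower (median -0.11), among them Acsl3, which activates fatty acids, at 0.85, and Hacd1, a dehydratase of elongation, at -0.56. Of 13 fatty acid oxidation genes, 1 was higher and 5 lower (median -0.34), with Cpt1a, which admits fatty acids to mitochondria, at -1.10 (SE 0.075, adjusted p = 4.9e-09) and its partner carrier Slc25a20 at -0.99. All 11 tested proliferation markers were higher in ISP8 (median 1.60), and the part of cell cycling in the differences of the pathway was not tested. No gene of these lists was called between PKBα-/- and wild-type mice in either subset.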

How the data were processed

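Biotin-labelled RNA, amplified in 2 cycles, was hybridised to Affymetrix mouse genome arrays. The deposited values are intensities on a linear scale, which the authors summarised per probe set with GC-RMA in Genedata Refiner. The values were taken to log2 with no constant added (lowest value 0.0774). Probe sets were named from the platform annotation: 34958 of 45101 carried 1 symbol, 932 several and 9211 none. For each gene the probe set with the highest mean log2 over 16 arrays was used. The platform measures no depth, and the number of arrays limits the precision.

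A probe set was tested if it exceeded 20 on at least 1 array of a pair in at least 3 pairs. limma 3.58.1 in R 4.3.3 (lmFit, eBayes with trend) was run on all tested probe sets, with the littermate pair (genotype) or the mouse (subset) as a block, and p-values were adjusted with Benjamini-Hochberg over all probe sets tested. The script was tested on simulated data. Pairs come from the sample descriptions. Over 19227 probe sets, the deviations from the group means of littermates correlated at 0.431 to 0.489 in DN3 and 0.149 to 0.298 in ISP8 arrays, against -0.307 to 0.102 and -0.273 to 0.113 for mice of different pairs. Where nothing else is said, mice are the replicates. The fits over both genotypes and of the difference between genotypes did not model the littermate pair beside the mouse.

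The 32 genes and the other lists were chosen with earlier results of these data known. Genes were named by role, and values are given in full for those called between subsets and those with the smallest p between genotypes. Hmgcs1 was added to the printed promoters after the motif search. Figures were drawn with matplotlib 3.10.9 in Python 3.11.15. Alternatives covered the filter, an added constant, quantile normalization, the block, robust moderation, 1 fit of all arrays, the mean of a gene's probe sets, the methods' paired test and leaving out each pair.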

Additional observations from a re-analysis of the deposited data

Results flagged for a closer look

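Of 128 groups of 4 arrays, 5 held an array set far from the other 3, and chance alone gives about 1 in 20. Tm7sf2 in wild-type DN3 thymocytes of pair 3 was 1477, where the other 3 arrays lay between 731 and 798, and its PKBα-/- littermate had 1546. Srebf1 in PKBα-/- ISP8 thymocytes of pair 4 was 3509, where the others lay between 2762 and 2870.4, and the wild-type littermate had 4051. Srebf2 and Fads2 in PKBα-/- DN3 thymocytes of pair 1 were 282 and 775, below the others at 426 to 457 and 1163 to 1239. Acss2 in PKBα-/- ISP8 thymocytes of pair 2 was 287, below the others at 359 to 376, and its wild-type littermate was the lowest of its group as well, at 241.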

How the results depend on the processing

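No gene of the 32 was called between PKBα-/- and wild-type mice, and none differed between the genotypes in its ISP8 to DN3 change, under any of the alternatives run, each left-out pair included. For ISP8 against DN3 over both genotypes, the 14 called genes became 3 under the methods' selection (unadjusted p with a 1.5-fold minimum), which leaves out small changes by construction, and 12 to 15 under the other alternatives. In PKBα-/- mice the 9 became 4 under the methods' selection and 4 under their paired test after Benjamini-Hochberg, and 8 to 10 otherwise. In wild-type mice the 11 became 3, 3 and 10 to 13. The paired test without moderation has 3 residual degrees of freedom there. Leaving out 1 pair gave 13 to 16 genes over both genotypes, 8 to 9 in PKBα-/- mice and 6 to 10 in wild-type mice. Without the replicate block 13, 8 and 10 genes were called, the pairing thus changing the calls of Ebp, of Idi1 in PKBα-/- mice and of Fasn in wild-type mice. The direction of Hsd17b7 turned with the mean of its probe sets, to 0.11 in wild-type mice and 0.0078 over both genotypes, and that of Acly with quantile normalization, to -0.00017, and the cause was not tested. The other called genes, Dhcr7, Elovl6, Scd2 and Fads2 among them, kept their direction under every alternative run. The fit of all 16 arrays is the main fit over both genotypes and was not run there as an alternative. The number of mice, 4 a genotype, sets the width of the intervals, and levels near 20, such as those of Scd1, carry no usable change.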
